A study of Mus musculus with 12 samples.

Results

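The 6 genes described here are Parp9, Parp10, Parp11, Parp12 and Parp14, interferon-inducible members of the poly(ADP-ribose) polymerase (PARP) family, and Dtx3l, the ubiquitin ligase that partners Parp9. They were chosen as a named gene family, with earlier results of these data known, from the 52355 genes to which the study's transcripts were summed. All 6 passed the filter on low counts. The measurements are RNA sequencing of 12 libraries, 4 in each of 3 groups, of mouse CD11c cells taken from inguinal lymph nodes. The integrin CD11c (gene Itgax) marks dendritic cells, and some macrophages and lymphocytes carry it too. The healthy group had neither a tumor nor a CD40 agonist, the tumor-draining group had a subcutaneous KPC tumor and no agonist, and the agonist group had the tumor and a CD40 agonist. KPC tumors are a transplantable mouse model of pancreatic carcinoma, and CD40 is a receptor of antigen-presenting cells that an agonist activates. The sources used here do not give the strain, age or sex of the mice, the agonist's identity, dose or schedule, a control treatment for mice without it, or how pure the CD11c cells were.

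PARP family enzymes transfer ADP-ribose from NAD to proteins and nucleic acids, and most of the members described here add single units rather than chains. Interferons raise their transcription through transcription factors that include STAT2 and IRF9. Parp9 and Dtx3l form a complex that ubiquitylates histones and other targets, Parp14 carries macrodomains that bind ADP-ribose, and Parp10, Parp11 and Parp12 have been tied to antiviral defence. In dendritic cells and macrophages these genes belong to the interferon response that accompanies activation.

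The estimated counts of a library totalled 32626784 to 56320661 (median 45423645.5), and a member had between 1083 and 19238 counts in a library. Each library title carries a prefix shared by 1 library of every group, used here as replicate number 1 to 4. Libraries with the same prefix deviated together from their group means, so tests are given without and, for the 6 genes wherever the call changes, with the prefix as a block, a term that compares groups within prefixes. Whether each library is a separate animal is not stated in the labels, so that a p-value reflects only how these samples spread, which can be partly technical. The 12 listed dendritic cell markers were all detected in every library, with Itgax at 832 ± 209 CPM in healthy, 968 ± 188 in tumor-draining and 731 ± 129.7 in agonist nodes (CPM, normalized for library size; mean ± SD, n = 4). In RNA of a mixed cell population, fewer cells of a type and less RNA per cell cannot be told apart.

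All 6 genes were lowest in healthy nodes, intermediate in tumor-draining nodes and highest in agonist-treated tumor-draining nodes by their group means. Between agonist and healthy nodes all 6 rose, by 1.39-fold (Parp11) to 1.91-fold (Parp9), and for each of them every agonist library lay above every healthy library. In this comparison 4.25% of the 23729 genes tested were higher at a Benjamini-Hochberg adjusted p under 0.05 in edgeR's quasi-likelihood test, and 7.6% had every agonist library above every healthy one. With the prefix as a block all 6 were again called, against 11.7% of all genes. The median log2 fold change of the 6 was 0.70, beside a median of -0.03 over all genes tested.

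The steps between neighbouring groups were smaller. From healthy to tumor-draining nodes 0 of the 6 were called by edgeR (0.181% of all genes were higher), 3 had an unadjusted p under 0.05 (7.76% of all genes, in either direction), and DESeq2 and limma voom also called 0. With the block, Parp9, Dtx3l and Parp14 rose, against 4.02% of all genes. From tumor-draining to agonist nodes 0 of the 6 were called without the block (1.85% of all genes were higher), 5 had an unadjusted p under 0.05 (12.9% of all genes), and DESeq2 and limma voom called 0. All 6 rose with the block, against 6.74% of all genes. In CPM each of the 6 was higher in 4 of 4 prefix pairs in both steps, which held for 2.95% of all genes (19% in the tumor step and 17.2% in the agonist step taken singly). The smallest of these differences was 0.007 on the log2 scale, for Parp10 in the tumor step. In TPM, which corrects for transcript length, Parp10 fell in the tumor step in replicates 2 (11.5 to 11.2) and 4 (11.4 to 10.7). Parp11 fell there in replicate 4 (18.3 to 16.5 TPM). Both steps share the tumor-draining libraries.

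**Figure D1:**
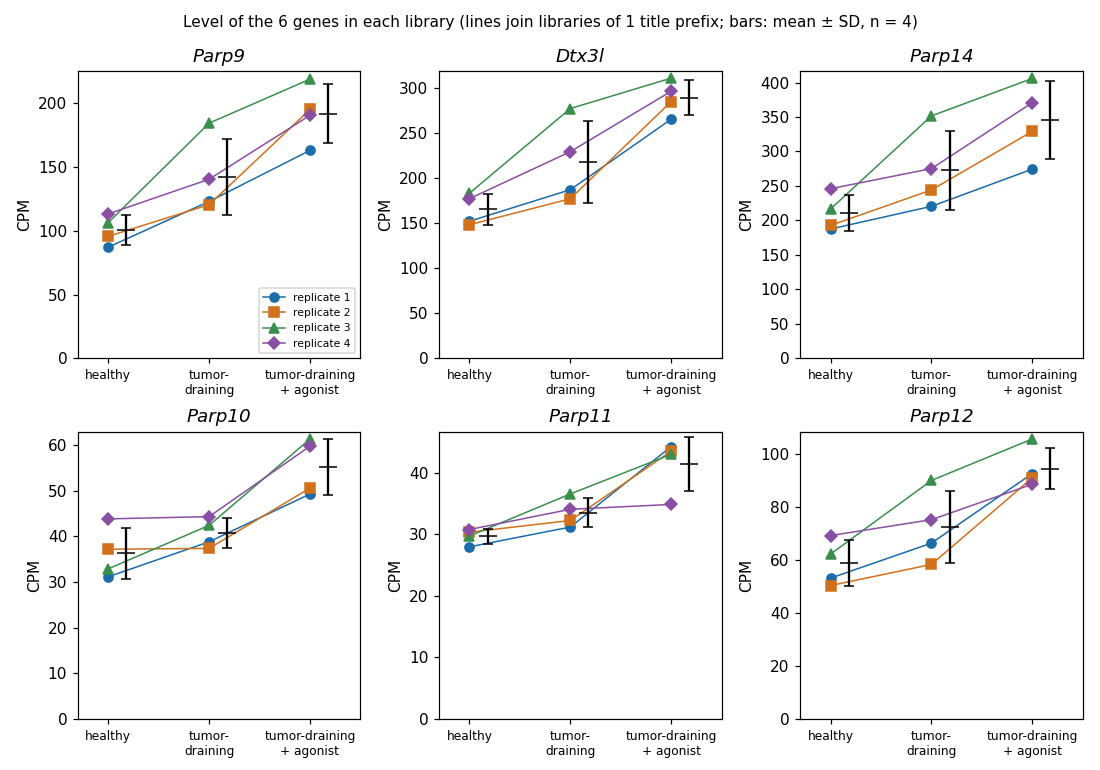
Level of each gene (vertical axis, CPM from 0) in the 12 libraries by group. Coloured lines join the libraries of 1 title prefix and black bars are the mean ± SD of 4 libraries; all agonist points lie above all healthy points for each gene, and every line rises at each step.

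**Figure D2:**
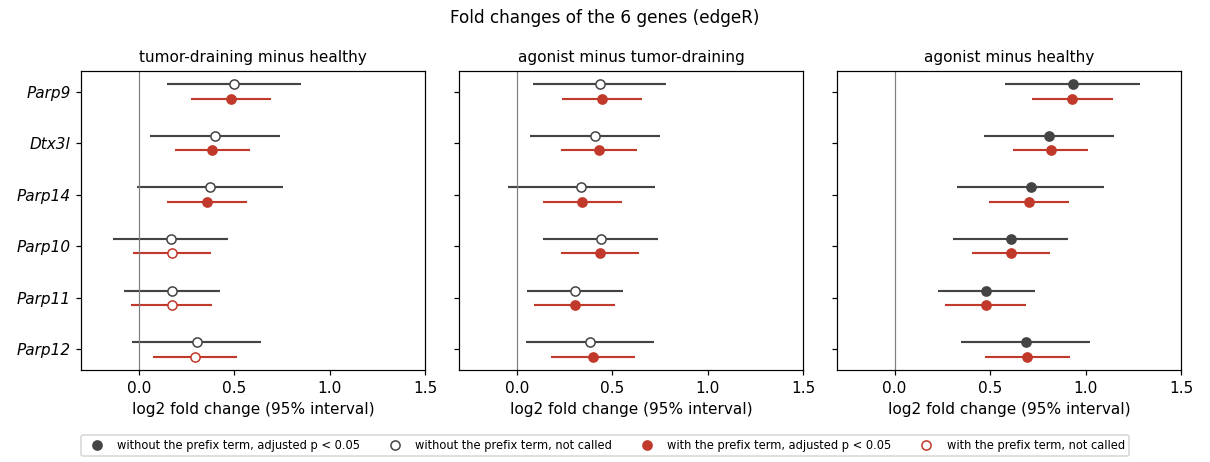
Log2 fold change of each gene (horizontal axis) with its 95% confidence interval in the 3 comparisons, from the edgeR fit without (grey) and with (red) the prefix as a term. The intervals use the residual degrees of freedom alone, so they are wider than the tests imply. Parp14 in the first comparison without the prefix term has an interval of -0.01 to 0.76 and an unadjusted edgeR p of 0.0444. Filled points passed an adjusted p of 0.05: none in the first 2 comparisons without the prefix term, 3 and 6 with it, and all 6 in agonist minus healthy by both fits.

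Levels of different genes were compared in TPM, which corrects for transcript length. With all transcripts of a gene summed, Parp9 had the highest TPM of the 6 in 12 of 12 libraries and Parp10 the lowest in 12 of 12. In healthy nodes Parp9 stood at 35.6 ± 4.31 TPM, followed by Parp14 at 24.6 ± 2.995 and Dtx3l at 24.4 ± 2.75, which did not differ beyond their spread. Parp11 at 17.2 ± 1.87 and Parp12 at 16.1 ± 1.81 TPM also lay within each other's spread, and Parp10 was at 9.91 ± 1.80 TPM. In agonist nodes the order was Parp9 (60.8 ± 8.79 TPM), Dtx3l (40.9 ± 5.66), Parp14 (37.6 ± 5.99), Parp12 (24.3 ± 2.39), Parp11 (22.3 ± 2.45) and Parp10 (14.1 ± 2.14). The ranges of Dtx3l and Parp14 again overlapped, as did those of Parp12 and Parp11. Within libraries, however, Dtx3l was above Parp14 in every agonist library (32.5, 42.5, 43.5 and 45.0 against 29.0, 38.0, 41.8 and 41.6 TPM). Parp11 was likewise above Parp12 in every healthy library. The order of Dtx3l and Parp14 in healthy libraries, and of Parp12 and Parp11 in agonist libraries, was mixed.

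Both ends of this order depended on short non-coding transcripts, as did the place of Parp11 beside Parp12. Parp9-207, a nonsense-mediated decay transcript of 468 bases, held 15.5% of the Parp9 TPM in healthy nodes. Over protein-coding transcripts alone, an order computed after the values were seen, Parp9 was highest in 9 libraries and Dtx3l in 3, and Parp11 was lowest in 9 and Parp10 in 3. In healthy nodes coding TPM was 24.4 ± 2.75 for Dtx3l, 23.5 ± 4.05 for Parp9, 6.91 ± 1.14 for Parp10 and 5.94 ± 1.20 for Parp11, so that neither pair of neighbours differed beyond its spread.

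Parp9 binds ADP-ribose through macrodomains and needs Dtx3l for the activity of their complex. The 4 healthy libraries, in prefix order, had 87.2, 95.6, 106 and 113 CPM of Parp9, the tumor-draining libraries 123, 120.5, 184 and 140.4 CPM, and the agonist libraries 163, 195, 219 and 191 CPM. All tumor-draining values lay above all healthy ones, whereas tumor-draining replicate 3 lay above agonist replicate 1. Parp9 rose from 101 ± 11.5 CPM in healthy to 192 ± 22.9 CPM in agonist nodes (log2 fold change 0.93, SE 0.16, edgeR adjusted p = 0.00234). Its log2 fold change from healthy to tumor-draining nodes (142 ± 29.6 CPM) was 0.50 (95% interval 0.15 to 0.85, adjusted p = 0.302), and 0.49 with the block (adjusted p = 0.00923). From tumor-draining to agonist nodes it was 0.43 (adjusted p = 0.196), and 0.44 with the block (adjusted p = 0.00489).

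Dtx3l supplies the RING domain of the complex and thus its ubiquitin ligase activity. Its level was 152, 148, 183 and 177 CPM in the healthy libraries, 187, 177, 277 and 229 CPM in the tumor-draining libraries and 265, 285, 310.5 and 296 CPM in the agonist libraries. Replicate 3 was the highest tumor-draining library and lay within the agonist range, while the other 3 lay below it. Dtx3l rose from 165 ± 17.6 CPM in healthy to 289 ± 19.2 CPM in agonist nodes, a log2 fold change of 0.81 (SE 0.15, edgeR adjusted p = 0.00466). For the healthy to tumor-draining step the log2 fold change was 0.40 (adjusted p = 0.468; 0.39 and 0.0191 with the block). The tumor-draining to agonist step measured 0.41 (adjusted p = 0.211; 0.43 and 0.00433 with the block).

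The proportion of the partners gave no call between groups. The log2 ratio of Parp9 to Dtx3l CPM was -0.71 ± 0.09 in healthy, -0.61 ± 0.07 in tumor-draining and -0.60 ± 0.09 in agonist nodes (n = 4 each). Agonist and healthy nodes differed by 0.12 in this ratio (exact two-sided permutation test, p = 0.143, 0.214 after Benjamini-Hochberg adjustment over 3 comparisons; 0.0286 is the smallest p that 4 against 4 allows). A single comparison at that smallest p would not pass the adjustment over 3 comparisons. The ratio was higher in the agonist than in the healthy library in 4 of 4 prefix pairs. In TPM the difference between tumor-draining and healthy nodes turned from 0.10 to -0.02, and neither was called, which does not show that the proportion was equal.

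Parp9 and Dtx3l lie head to head on chromosome 16 (GRCm38, GENCODE M21): Parp9 runs on the plus strand from 35938470 to 35972605 and Dtx3l on the minus strand from 35926511 to 35939151. Their annotations overlap by 682 bases, and the leading Parp9 transcript, Parp9-201, overlaps Dtx3l by 141 bases. The library kit keeps strand, but the sources used here do not say whether the counting used it, so reads in the shared bases could be assigned to either gene. Parp14 lies on the minus strand from 35832874 to 35871544, with 54966 bases between its end and Dtx3l.

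Of the 3 nearest tested protein-coding genes on each side, 1 of 6 was called between agonist and healthy nodes, Hspbap1, which borders Parp14. Hspbap1 rose from 14.4 ± 1.70 to 20.6 ± 0.589 CPM, by 0.52 on the log2 scale (SE 0.12, edgeR adjusted p = 0.0175). Kpna1, an importin alpha and the nearest gene beyond Parp9, was at 72.4 ± 8.93 CPM in healthy, 81.7 ± 15.0 in tumor-draining and 63.8 ± 7.13 in agonist nodes, with a log2 fold change of -0.18 between agonist and healthy nodes (adjusted p = 0.630). The other 4, Dirc2, Sema5b, Wdr5b and Fam162a, had log2 fold changes of 0.32, -0.54, -0.03 and 0.31 and were not called. With the block Dirc2 was also called (log2 fold change 0.31, adjusted p = 0.0268). In the steps 0 of the 6 neighbours were called without the block. With it Dirc2 rose in the tumor step (0.35, adjusted p = 0.0375), and in the agonist step Hspbap1 rose (0.31, adjusted p = 0.0414) and Kpna1 fell (-0.35, adjusted p = 0.0101).

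Parp14, the largest member, couples ADP-ribosyltransferase activity to macrodomains and is known as a cofactor of STAT6 in interleukin-4 signaling. It stood at 188, 193, 217 and 246 CPM in healthy, 220.4, 244, 352 and 275 CPM in tumor-draining and 274, 329, 406 and 371 CPM in agonist libraries. Neighbouring groups overlapped, since healthy replicate 4 exceeded tumor-draining replicates 1 and 2, and tumor-draining replicate 3 exceeded agonist replicates 1 and 2. From healthy to agonist nodes it rose from 211 ± 26.7 to 345 ± 56.6 CPM, by 0.71 on the log2 scale (SE 0.17, edgeR adjusted p = 0.0210). The call was lost without healthy replicate 1, 2 or 3 or agonist replicate 2, 3 or 4, with adjusted p-values from 0.0506 to 0.0876 and log2 fold changes from 0.63 to 0.73, whereas with the block (0.70, adjusted p = 0.000191) it held without any 1 library. The steps measured 0.37 (adjusted p = 0.627; 0.36 and 0.0323 with the block) and 0.34 (adjusted p = 0.434; 0.34 and 0.0193 with the block). The blocked call of the agonist step was lost without tumor-draining replicate 1, 2 or 4 or agonist replicate 2 or 3 (adjusted p-values of 0.0595 to 0.0963).

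Tumor-draining replicate 3 was the highest of its group for Parp9, Dtx3l, Parp14, Parp11 and Parp12. Without it, the log2 fold changes of the tumor step with the block were 0.40 for Parp9 (adjusted p = 0.0307), 0.30 for Dtx3l (0.0633) and 0.28 for Parp14 (0.0997), so that 1 of the 3 calls was left. Leaving out healthy replicate 1, healthy replicate 2 or tumor-draining replicate 1 also left 1, and leaving out healthy replicate 3 left 0 (Parp9 0.41, adjusted p = 0.0582). In the agonist step with the block all 6 were called without tumor-draining replicate 3, with log2 fold changes from 0.34 (Parp11) to 0.53 (Parp9), whereas 3 were called without tumor-draining replicate 2. The same replicate 3 had the highest summed level of the neutrophil marker list (179 CPM, against 52.5 in the lowest tumor-draining library) and of the interferon response list (1817 against 1212 CPM). It was also the highest of its group for stromal and tumor cell markers (449 CPM, against 157 to 206 in the other 3), plasma cell markers (571 against 321 to 416), B cell markers (443 against 264 to 370) and, narrowly, monocyte and macrophage markers (1730.2 against 1106 to 1729). Their part in the values of the members was not tested.

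Parp10, which adds single ADP-ribose units to proteins and carries ubiquitin-binding motifs, lies on chromosome 15 from 76231174 to 76243441 on the minus strand. It measured 31.1, 37.2, 32.9 and 43.8 CPM in healthy, 38.8, 37.3, 42.4 and 44.3 CPM in tumor-draining and 49.2, 50.5, 61.3 and 59.7 CPM in agonist libraries. Healthy and tumor-draining values intermingled, and all agonist values lay above both, which among all genes held for 4.86% in agonist against tumor-draining nodes. Parp10 alone of the 6 separated these groups completely. It rose from 36.2 ± 5.64 to 55.2 ± 6.18 CPM between healthy and agonist nodes, by 0.61 on the log2 scale (SE 0.13, edgeR adjusted p = 0.0130). This call was lost without healthy replicate 1 or 3 or agonist replicate 3 or 4 (adjusted p-values of 0.0521 to 0.0695). The tumor step measured 0.17 (adjusted p = 0.790; 0.220 with the block) and the agonist step 0.44 (adjusted p = 0.110; 0.00479 with the block).

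Parp12 joins a catalytic domain to the CCCH zinc fingers that it shares with the antiviral protein Zc3hav1. On chromosome 6 it runs on the minus strand from 39086410 to 39118349. The healthy libraries held 53.2, 50.4, 62.3 and 69.3 CPM, the tumor-draining libraries 66.4, 58.4, 90.1 and 75.3 CPM, and the agonist libraries 92.7, 91.1, 106 and 88.6 CPM. Tumor-draining replicate 3 reached the agonist range and the other 3 did not. Parp12 rose from 58.8 ± 8.64 to 94.5 ± 7.65 CPM between healthy and agonist nodes, by 0.69 on the log2 scale (SE 0.15, edgeR adjusted p = 0.0125). Without healthy replicate 1 the log2 fold change was 0.62 (adjusted p = 0.0544). The tumor step was 0.30 (adjusted p = 0.670; 0.0721 with the block) and the agonist step 0.38 (adjusted p = 0.254; 0.0120 with the block, and 0.0611 without tumor-draining replicate 2).

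Parp11, a mono-ADP-ribosyltransferase with a WWE domain, had the smallest fold change of the 6 between healthy and agonist nodes. It lies on the plus strand of chromosome 6 from 127446840 to 127494261. Its level was 28.0, 30.3, 29.7 and 30.8 CPM in healthy, 31.2, 32.2, 36.5 and 34.0 CPM in tumor-draining and 44.2, 43.5, 43.0 and 34.8 CPM in agonist libraries. Every tumor-draining library lay above every healthy one, as for Parp9, which among all genes held for 2.57%. Agonist replicate 4 stood apart from the other 3 of its group, and was below tumor-draining replicate 3. From healthy to agonist nodes Parp11 rose from 29.7 ± 1.23 to 41.4 ± 4.39 CPM, by 0.48 on the log2 scale (SE 0.11, edgeR adjusted p = 0.0188). This call was lost without healthy replicate 1 or 3 or agonist replicate 1, 2 or 3 (adjusted p-values of 0.0552 to 0.0736). The steps measured 0.17 (adjusted p = 0.748; 0.236 with the block) and 0.30 (adjusted p = 0.216; 0.0367 with the block). The blocked call of the agonist step was lost in 7 of the 12 fits that left out 1 library (healthy replicate 2, tumor-draining replicate 1, 2 or 4, agonist replicate 1, 2 or 3), with adjusted p-values of 0.0514 to 0.134.

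Parp11 is annotated with 10 transcripts. Parp11-202 starts at 127446840 and Parp11-204 at 127449263, 5 transcripts start between 127453620 and 127453723, and 3 start further inside the gene. Sequences before the first start, that of Parp11-202, and before the downstream cluster are shown, and none before the start of Parp11-204. They were picked after the values were seen, because Parp11-202 and Parp11-204 together were at higher levels in every agonist library. They are from RefSeq (GRCm38.p6, plus strand, 5′ to 3′), from chr6:127446590-127446839, which lies before the first exon and outside any annotated transcript, and from chr6:127453377-127453619, which lies in introns of Parp11-202 and Parp11-204. Capitals mark an interferon-stimulated response element core (TTTCNNTTTC) joined to a gamma-activated site (TTCNNNGAA), which share 3 bases.
upstream Parp11 start: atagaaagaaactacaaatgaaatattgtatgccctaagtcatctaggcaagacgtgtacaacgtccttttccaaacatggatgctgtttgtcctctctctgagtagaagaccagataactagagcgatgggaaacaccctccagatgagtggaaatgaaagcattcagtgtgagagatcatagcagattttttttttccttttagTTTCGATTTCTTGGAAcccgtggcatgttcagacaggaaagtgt
downstream Parp11 start: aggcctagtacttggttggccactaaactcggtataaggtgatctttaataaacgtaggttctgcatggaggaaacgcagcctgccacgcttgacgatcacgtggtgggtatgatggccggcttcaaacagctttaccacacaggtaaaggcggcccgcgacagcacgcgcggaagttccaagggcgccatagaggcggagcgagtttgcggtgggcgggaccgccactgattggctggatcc

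The motifs were searched on both strands of RefSeq windows from 250 bases before to 50 bases after a start, of which 32851 were listed. The response element core was in 3.44% of these windows, the gamma-activated site in 8.30% and a kappa B site in 8.46%. Of the 6 genes, Parp11 (2 windows), Parp12 and Dtx3l had windows listed. The upstream Parp11 window held the response element core from 44 to 35 bases before the start and the gamma-activated site from 37 to 29 bases before it. The downstream Parp11 window and those of Parp12 and Dtx3l held none of the 3 motifs in these letters. Among the interferon signaling genes, the Stat2 window held a response element core, the Irf1 window a gamma-activated site and a kappa B site, and, among the other PARP genes, the Zc3hav1 window a kappa B site. These matches describe letters and not binding, which was not measured.

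The upstream transcripts, Parp11-202 and Parp11-204, summed to 7.91, 4.63, 3.12 and 12.8 CPM in healthy, 9.80, 9.25, 5.91 and 2.38 CPM in tumor-draining and 25.5, 14.5, 23.2 and 15.5 CPM in agonist libraries. All 4 agonist libraries lay above the other 8, and the healthy and tumor-draining values intermingled. Among genes, every agonist library lay above every tumor-draining one for 4.86% and above every healthy one for 7.6%. The share among transcripts or sums of transcripts was not computed. The 5 downstream transcripts were at 18.6 ± 4.66, 23.3 ± 6.71 and 17.9 ± 5.15 CPM, with overlapping ranges, and 3 transcripts with internal starts at 3.92 ± 0.746, 3.82 ± 0.771 and 3.31 ± 1.10 CPM. The upstream share of the gene's counts was 24.0% ± 13.8 in healthy nodes (SD, n = 4). It was 20.7% ± 11.6 in tumor-draining and 48.0% ± 11.6 in agonist nodes (SD, n = 4). Unlike the sums, the shares of healthy and agonist libraries overlapped, with healthy replicate 4 (40.89%) above agonist replicate 2 (33.98%). Every agonist share lay above every tumor-draining share, of which the highest was 31.98%. The grouping by start was chosen after the values were seen, so these sums are a description with no test.

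**Figure D3:**
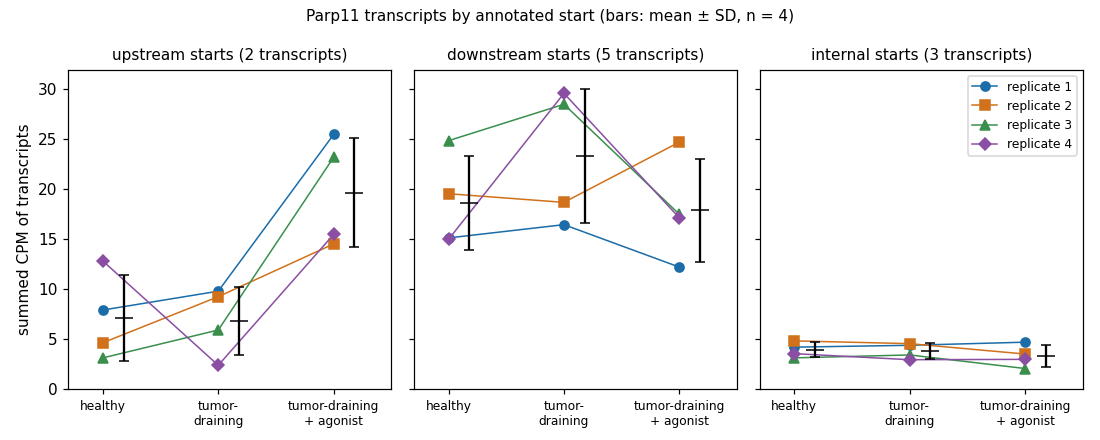
Summed CPM (vertical axis) of Parp11 transcripts with an upstream, a downstream or an internal annotated start, by group. Lines join libraries of 1 prefix and bars are the mean ± SD of 4 libraries; the upstream sum was 14.5 to 25.5 CPM in agonist libraries and at most 12.8 CPM in the others, while the downstream ranges overlapped.

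When every transcript was tested, none of the Parp11 transcripts was called. Parp11-202 had a log2 fold change of 1.37 (SE 0.49) between agonist and tumor-draining nodes and Parp11-204 one of 2.98 (SE 1.16), with edgeR adjusted p-values over 68656 transcripts of 0.544 and 0.610 (0.327 and 0.293 with the block). These transcripts share most of their sequence. Parp11-202 has 156 words of 31 bases found in no other Parp11 transcript (4.61% of its words) and Parp11-204 has 77 (10.95%), so the model that divides reads among them rests on few of their bases. Which Parp11 transcripts changed is therefore less certain than the change of the gene.

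For the other 5 genes 1 protein-coding transcript led in each group, with Dtx3l-201 at 94.9% to 96.2%, Parp12-201 at 87.7% to 91.8%, Parp14-201 at 80.6% to 85.0%, Parp9-201 at 55.3% to 60.8% and Parp10-201 at 54.0% to 61.3% of the gene's TPM by group mean. None of the 18 exact two-sided permutation tests of a leading transcript's share passed, those of Parp11-205 for Parp11 included. Their smallest adjusted p was 0.735, and the smallest unadjusted p was 0.0571 for Parp9-201 between tumor-draining and healthy nodes. The smallest p that 4 against 4 allows is 0.0286, so a single share that separated the groups fully could not pass adjustment over 18 tests. These tests do not show that the shares were equal. Between agonist and healthy nodes 0 transcripts of the 6 genes were called without the block, where 0.728% of all transcripts were. With the block 6 were called, against 3.57% of all transcripts, namely Parp9-201, Parp9-203, Dtx3l-201, Parp14-201, Parp10-201 and Parp12-201, all protein-coding and all higher. The gene-level rises of these 5 genes thus included their coding transcripts.

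Whether the agonist step differed in size from the tumor step was tested directly. The difference of the log2 fold changes lay between -0.06 (Parp9) and 0.27 (Parp10), and 0 of the 6 were called by edgeR, nor was any at an unadjusted p under 0.05. In this contrast 0.0506% of all genes were called without the block and 6.08% with it, where again 0 of the 6 were called. The 95% intervals ran from -0.67 to 0.54 for Parp9 and from -0.25 to 0.79 for Parp10, and with the block from -0.40 to 0.32 and from -0.09 to 0.62. Differences between the steps within these intervals cannot be told from none. Without tumor-draining replicate 3 all differences were positive, from 0.22 (Parp11) to 0.32 (Parp12) without the block, with Parp9 at 0.24. With the block they ran from 0.13 (Parp9) to 0.29 (Parp10). Again 0 of the 6 were called by either fit, and the size of the difference thus depended on that library.

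The 6 genes varied mainly with the group. The group accounted for 65.3% (Parp14) to 80.7% (Parp9) of the variance of log2 CPM over the 12 libraries, against a median of 19.6% over all tested genes, and the prefix for 4.23% (Parp11) to 28.4% (Parp14), against a median of 50.3%. Each gene was set beside the mean standardized log2 CPM of the other 5, and Pearson's r over the 12 libraries was 0.98 for Parp9 and Dtx3l, 0.97 for Parp12, 0.94 for Parp14, 0.89 for Parp10 and 0.86 for Parp11. These libraries share groups and prefixes, so the coefficients are descriptions.

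Among 10581 other genes (mean log2 CPM no lower than 2), those whose pattern over the 12 libraries was most like the mean of the 6 included Lgals9 (r = 0.985), Serpina3g (0.983), Ccnd2 (0.981) and Ifi206 (0.980). Lgals9 encodes galectin-9 and Ccnd2 cyclin D2. Serpina3g and Ifi206 belong to families of near-identical copies whose reads the quantification could divide differently. Lgals9 rose from 28.6 ± 7.05 to 72.0 ± 16.2 CPM between healthy and agonist nodes, by 1.33 on the log2 scale (SE 0.21, edgeR adjusted p = 0.00177).

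Of the 11 other PARP family genes listed, 1 was called between agonist and healthy nodes (2 higher and 1 lower with the block). Without the block this was Parp3, an enzyme of DNA break repair, which rose from 38.4 ± 3.72 to 57.2 ± 8.42 CPM, by 0.58 on the log2 scale (SE 0.16, edgeR adjusted p = 0.0457). The median log2 fold change of the 11 was 0.10. Zc3hav1, the catalytically inactive antiviral PARP, was at 201 ± 20.9, 222 ± 34.7 and 255 ± 40.9 CPM in healthy, tumor-draining and agonist nodes, a log2 fold change of 0.35 between the last and the first (adjusted p = 0.256; 0.34 and 0.00402 with the block). Tiparp, a mono-ADP-ribosyltransferase induced by the aryl hydrocarbon receptor, was at 33.6 ± 2.33, 40.3 ± 7.44 and 32.7 ± 3.30 CPM (agonist against healthy, log2 fold change -0.04, adjusted p = 0.937).

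In the separate steps 0 of these 11 were called without the block. At an unadjusted p under 0.05 there were 0 in the tumor step and 2 in the agonist step. With the block 0 were called in the tumor step, and 2 rose and 1 fell in the agonist step. Parp4, the PARP of vault particles, was 1 of those that rose (log2 fold change 0.36, adjusted p = 0.00305). Parp1, the main responder to DNA breaks, was the one that fell (log2 fold change -0.36, adjusted p = 0.00538), and its CPM was 181 ± 50.3, 198 ± 53.0 and 156 ± 46.5 in the 3 groups.

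Genes that remove or read ADP-ribose were largely without a call. None of the 9 tested was called by edgeR in any of the 3 comparisons, and 0, 1 and 1 had an unadjusted p under 0.05 in the tumor step, the agonist step and agonist against healthy nodes. With the block Adprh, which removes ADP-ribose from arginine, was higher in tumor-draining than healthy nodes (log2 fold change 0.34, adjusted p = 0.0443) and in agonist than healthy nodes (0.59, adjusted p = 0.000668). H2afy, a histone variant with a macrodomain, fell in the agonist step with the block (log2 fold change -0.53, adjusted p = 0.00237), from 358 ± 72.9 to 246 ± 45.0 CPM. Parg, which cuts ADP-ribose chains, also fell there (-0.25, adjusted p = 0.0330).

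Of 3 tested ecto-ADP-ribosyltransferases, which use NAD outside the cell, Art2b was called. It was at 5.07 ± 1.29 CPM in healthy, 3.78 ± 0.494 in tumor-draining and 9.24 ± 1.99 in agonist nodes, and rose in the agonist step (log2 fold change 1.29, SE 0.22, edgeR adjusted p = 0.00657). Art2b is known from T cells and has a near-identical copy, Art2a, not analysed here, so its counts are uncertain. Of the 4 other Deltex genes, Dtx4 rose between healthy and agonist nodes, at 21.6 ± 1.45 and 30.2 ± 3.47 CPM (difference of 0.49 on the log2 scale, SE 0.13, adjusted p = 0.0457). In the agonist step 0 of these 4 were called and 2 had an unadjusted p under 0.05, and with the block Dtx4 (0.36, adjusted p = 0.0412) and Dtx3 (0.46, adjusted p = 0.0453) were called.

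NAD is the substrate of all these enzymes, and 4 of 11 tested genes of its supply and consumption rose between healthy and agonist nodes, with none lower (4 higher and 1 lower with the block). Nampt, the rate-limiting enzyme of NAD salvage, was at 129, 119.6, 119.6 and 124 CPM in healthy, 148, 145, 209.6 and 147 CPM in tumor-draining and 230.3, 221, 221 and 185 CPM in agonist libraries. Its groups followed the order of the 6 genes, with every tumor-draining library above every healthy one and replicate 3 the highest tumor-draining library. Nampt rose by a log2 fold change of 0.80 (SE 0.14, edgeR adjusted p = 0.00276) between healthy and agonist nodes. Qprt, which makes NAD from tryptophan, went up from 3.14 ± 0.875 to 12.7 ± 4.30 CPM (by 2.02 on the log2 scale, SE 0.27, adjusted p = 0.000520), and Cd38, which degrades NAD, climbed from 40.0 ± 6.92 CPM to 94.2 ± 21.2 (1.23, SE 0.23, adjusted p = 0.00428).

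In the tumor step 0 of the 11 NAD genes were called and 2 had an unadjusted p under 0.05. With the block Nampt was called (log2 fold change 0.39, adjusted p = 0.0442). In the agonist step Qprt was called, at a log2 fold change of 1.66 (SE 0.27, adjusted p = 0.00531).

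**Figure D4:**
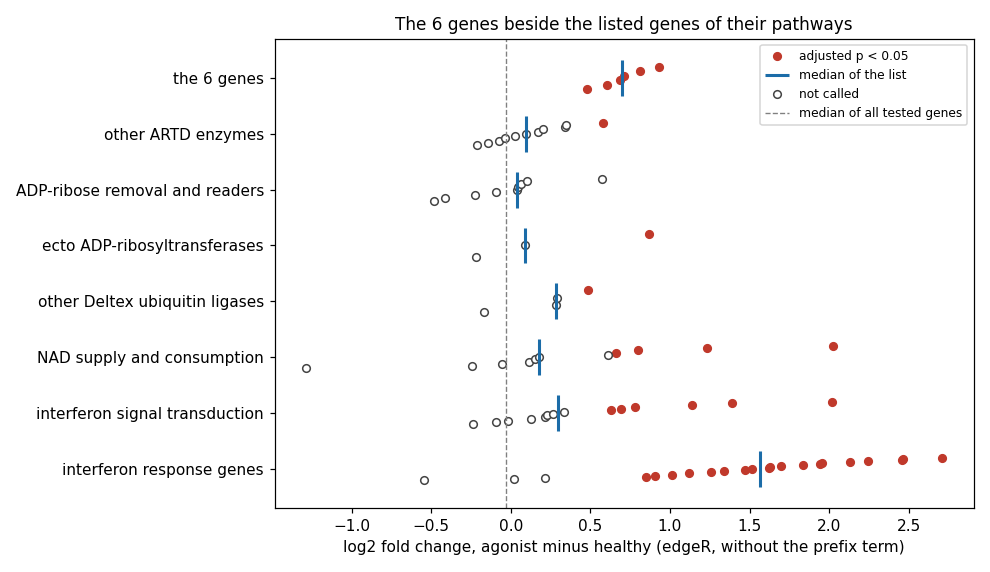
Log2 fold change between agonist and healthy nodes (horizontal axis, edgeR without the prefix term) of the 6 genes and of each listed gene, with 1 row per list; filled points passed an adjusted p of 0.05 and blue bars are list medians. The 6 genes lie between 0.48 and 0.93, most other PARP genes (ARTD enzymes) near the median of all genes, and most interferon response genes further to the right.

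Interferon signaling genes, through which the 6 are known to be induced, moved in part. Between healthy and agonist nodes 6 of 14 rose and none fell (9 and 1 with the block), with a median log2 fold change of 0.30. Stat2, a transcription factor of the type I interferon pathway, was at 88.9 ± 17.5 CPM in healthy and 143 ± 27.7 CPM in agonist nodes and rose by 0.69 on the log2 scale (SE 0.19, edgeR adjusted p = 0.0486). Irf9, the DNA-binding partner of Stat2, was at 124 ± 22.5, 152 ± 24.6 and 157 ± 25.0 CPM in the 3 groups (agonist against healthy, log2 fold change 0.33, adjusted p = 0.334; 0.34 and 0.00639 with the block).

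Irf1 and Irf7 are regulators of interferon genes. Irf1 was at 286 ± 37.2 CPM in healthy and 285 ± 30.6 in tumor-draining nodes and rose to 491 ± 47.2 in agonist nodes (agonist step, log2 fold change 0.79, SE 0.14, edgeR adjusted p = 0.00734). Irf7 was at 79.2 ± 37.0, 142 ± 31.7 and 321 ± 94.8 CPM, and rose by 2.02 on the log2 scale between healthy and agonist nodes (SE 0.31, adjusted p = 0.00125). With the block Irf7 (0.92, adjusted p = 0.00822) and Stat2 (0.40, adjusted p = 0.0106) also rose in the tumor step, in which 0 of the 14 were called without it and 2 had an unadjusted p under 0.05. Socs1, a feedback inhibitor of STAT signaling, rose in the agonist step (1.16, SE 0.25, adjusted p = 0.0227). The agonist step minus the tumor step was 0.80 for Irf1 (adjusted p = 0.325; 0.0238 with the block) and 0.33 for Irf7 (adjusted p = 0.924; 0.612 with the block).

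Most interferon response genes outside the PARP family rose. Between healthy and agonist nodes 19 of 22 rose and none fell (19 and 1 with the block), with a median log2 fold change of 1.57 beside 0.70 for the 6. Oasl1, an inhibitor of Irf7 translation, rose from 6.72 ± 2.55 to 44.0 ± 6.91 CPM, by 2.71 on the log2 scale (SE 0.24, edgeR adjusted p = 3.27e-05), the guanylate-binding protein Gbp2 from 167 ± 14.03 to 542 ± 25.2 CPM (1.70, SE 0.16, adjusted p = 5.68e-05) and Ifi44 from 6.59 ± 1.57 to 23.5 ± 2.47 CPM (1.83, SE 0.18, adjusted p = 6.28e-05). In the agonist step 9 of 22 rose and 1 fell, and the smallest p-values were those of Gbp5 (1.46, adjusted p = 0.000650), Gbp2 (1.29, adjusted p = 0.00118) and Herc6 (0.86, adjusted p = 0.00274). In the tumor step 1 rose, Oas2, from 2.56 ± 1.04 to 8.43 ± 2.80 CPM (1.72, SE 0.32, adjusted p = 0.0475), and with the block 12 rose and 1 fell. Gbp2, Gbp5, Oas2 and Oasl1 belong to families of similar genes, so their counts are less certain one against another.

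Markers of cell types moved beside these genes. Between healthy and agonist nodes 1 of 12 dendritic cell markers rose (Ccr7, a receptor of migrating cells) and 3 fell (Xcr1, Clec9a and H2-Ab1), and their summed level was 20514 to 32178 CPM in healthy, 20373 to 34142 in tumor-draining and 14246 to 21534 in agonist libraries. Of monocyte and macrophage markers 4 of 10 rose (Siglec1, Mertk, Fcgr1 and Marco) and 2 fell (Ccr2 and Adgre1; sums of 1085 to 1589, 1106 to 1730.2 and 1153 to 1783 CPM), and of T cell markers 3 of 10 fell (259 to 505, 249.6 to 511 and 206 to 442 CPM). Of 6 tested neutrophil markers 3 rose, with sums of 23.2 to 32.5, 52.5 to 179 and 65.1 to 114 CPM, and the defining marker Ly6g was at 0 in at least 1 library of each group. B cell markers (1 of 8 higher), plasma cell markers (2 of 7), natural killer cell markers (2 of 8), plasmacytoid dendritic cell markers (0 of 8) and stromal and tumor cell markers (1 of 8 lower) made up the rest. These markers were named after their values were seen. At an unadjusted p under 0.05 there were 2 plasmacytoid markers. With the block, 3 dendritic cell markers rose and 6 fell, 4 plasmacytoid markers fell (6 at an unadjusted p under 0.05), 1 T cell marker rose and 8 fell, 5 monocyte and macrophage markers rose and 2 fell, 6 neutrophil, 3 B cell and 3 natural killer cell markers rose, 3 plasma cell markers rose and 1 fell, and 1 stromal or tumor cell marker fell. The summed dendritic and plasmacytoid levels were each lower in the agonist library in 4 of 4 prefix pairs against healthy and in 4 of 4 against tumor-draining nodes. Unadjusted edgeR p-values without the block were under 0.05 (either direction, tumor step then agonist step) for 1 and 8 of 12 dendritic markers. Neutrophil markers had 6 and 1 of 6, T cell 5 and 1 of 10, natural killer 4 and 5 of 8, plasmacytoid 0 and 2 of 8. Monocyte and macrophage markers had 3 and 5 of 10, B cell 0 and 2 of 8, plasma cell 2 and 1 of 7, stromal and tumor 2 and 2 of 8. All genes had 7.76% and 12.9%. The part of these cell types in the levels of the 6 genes was not tested.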

How the data were processed

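RNA of CD11c cells was extracted with RNeasy Plus Micro kits and made into stranded libraries with NEBNext Ultra II Directional kits, per the labels' protocols. The authors deposited estimated counts and TPM per transcript, made with Salmon on mm10 per the submitters' processing notes. The deposited counts and TPM are named sailfish, however, so which tool was used is not settled. The version, annotation and strand setting are not stated in these notes or labels. Transcripts were summed to genes by GENCODE M21 (GRCm38; 131974 of 132374 matched, the other 400 holding 0.116% to 0.147% of counts) and the sums rounded. Genes were kept by filterByExpr (minimum count 10; 23729 genes), TMM-normalized and tested with edgeR 4.0.16 (robust quasi-likelihood, R 4.3.3), with Benjamini-Hochberg adjustment over all genes, a threshold of 0.05 and 9 residual degrees of freedom (6 with the block). CPM are TMM-scaled. Log2 CPM values use a prior count of 2, and fitted fold changes use edgeR's default prior count.

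Replicate numbers stand for the title prefix. Deviations of same-prefix libraries from their group means correlated at 0.20 to 0.47 in all 12 pairs (median 0.39). In the 36 other pairs the correlation ran from -0.45 to 0.33 (median -0.24), so the ranges overlapped. The prefix was treated as pairing the libraries, and the sources used here do not say what it marks. Alternatives were DESeq2 1.42.0, limma 3.58.1 with voom, DESeq2 size factors, no filter, limma on log2(TPM + 1), and leaving out each library. The script was tested on simulated data. Python 3.11.15 with scipy 1.17.1 ran the exact tests. The members and lists were chosen with earlier results of these data known. Named genes are the 6 members, up to 3 per list with the smallest p among those called in a comparison (or up to 2 called with the block), a set of fixed genes (Zc3hav1, Tiparp, Parp1, Stat2, Irf9, Irf1, Irf7 and Nampt), the most alike by r and the 6 neighbours. A gene that this rule also names is not reported here.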

Additional observations from a re-analysis of the deposited data

Results flagged for a closer look

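The Parp11 level of agonist replicate 4, 34.8 CPM, stood apart from the other 3 agonist libraries at 43.0, 43.5 and 44.2 CPM. Its gap to the nearest library was 0.866 of the group's range, above Dixon's 95% critical value for 4 values. Of 27 group values checked this was the one past that limit, and chance marks about 1 in 20 groups.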

How the results depend on the processing

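With the replicate block, 3 members were called from healthy to tumor-draining nodes (0 to 4 when 1 library was left out) and 6 from tumor-draining to agonist nodes (3 to 6), against 0 in each without it. Between agonist and healthy nodes 6 were called with or without the block; leaving out 1 library gave 2 (without healthy replicate 1) to 6 without the block and 6 in every fit with it. In limma on log2(TPM + 1), 2 were called there, Parp9 (adjusted p = 0.0265) and Dtx3l (0.0305), and without the filter 5, with Parp11 at an adjusted p of 0.0605. DESeq2, limma voom and DESeq2 size factors called 6. No result reversed among those with a call. The Parp9 to Dtx3l ratio between tumor-draining and healthy nodes was -0.0154 in TPM, and left-out libraries moved it from 0.07 to 0.13 there, from -0.0151 to 0.0509 in the agonist step and from 0.09 to 0.15 between agonist and healthy nodes. The cause was not tested.

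Over all genes, 47 were called from healthy to tumor-draining nodes, 1495 with the replicate block, 369 by DESeq2, 1 by voom, 75 without the filter and 11 in TPM. The agonist step gave 635, with 3161, 1091 (DESeq2) and 286 (TPM), and agonist against healthy nodes 1490, with 4781 and 820 (TPM). The difference of the steps gave 12, with 1443, 223 (DESeq2), 2 (voom), 19 (no filter) and 0 (TPM; 12 by edgeR). Counting error alone gives Parp11 a coefficient of variation of 2.76% in healthy libraries, against an observed 4.16%; for Parp14 these are 1.03% and 12.7%.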
